A study of Mus musculus with 24 samples.

Results

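The metallothionein genes Mt1, Mt2 and Mt3 were followed in the brain and liver of mice that lacked single copies of the nuclear tRNA-Phe genes. In the brain of tRNA-Phe-1-1-/- mice the geometric mean levels of Mt1 and Mt2 were 1.64-fold and 2.00-fold those of wild-type (WT) mice, and both rises passed the test over all genes. Mt3 was 1.25-fold higher in the same brains and did not pass it. In the liver of tRNA-Phe-1-1-/- mice the level of Mt1 lay between 2488 and 22706 normalised counts in the 3 libraries, against 72.8 to 415 in the 9 other liver libraries, and no Mt3 read was found in any liver. In the tRNA-Phe-3-1-/- and tRNA-Phe-2-1-/- lines no member passed the test against WT in brain, nor did Mt1 or Mt2 in liver.

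The 3 genes were taken by matching the Ensembl identifiers of the 55469 genes in the tables to the symbols Mt1 (ENSMUSG00000031765.8), Mt2 (ENSMUSG00000031762.7) and Mt3, and the mitochondrial genes whose symbols begin with mt- were left out. The genes were chosen by their normalised counts in liver, where the difference between tRNA-Phe-1-1-/- and WT mice was already known. Liver comparisons of these genes with tRNA-Phe-1-1-/- are therefore described without a test. For them, tests are given for the brain and for the liver of the other lines. The gene lists set beside the members were also chosen with earlier results of these data known. Tests of the listed genes, in either tissue, may therefore not be independent of that choice.

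Total RNA from pieces of brain and liver was sequenced in 24 libraries, 12 from each tissue, with 3 replicates (A, B and C) of each of 4 genotypes. The mice were 10 weeks old, on a C57BL/6N background and fed normal chow. The housing methods of the paper name male mice, while its RNA-seq methods give no sex. WT mice were compared with mice homozygous for a CRISPR-Cas9 deletion of tRNA-Phe-1-1, of tRNA-Phe-3-1 or of tRNA-Phe-2-1, genes for cytoplasmic tRNAs that read phenylalanine codons. The deletions were in the germline, so brain and liver of a mutant both carried them. The sources did not state whether the brain and liver libraries of one letter came from the same mouse, and p-values measure only the spread between these libraries. Libraries held 30365760 to 46225360 reads in brain and 32276896 to 51584522 in liver. Summed neuron markers were 144518 to 225074 normalised counts in the brain libraries and 123 to 526 in the liver libraries, and summed hepatocyte markers were 2173791 to 3443714 in the liver libraries and 33.3 to 50533 in the brain libraries. That list holds Ttr, a gene also used as a choroid plexus marker, and without it the brain sums were 19.7 to 1391. In whole pieces of tissue, fewer cells of a type and less RNA per cell cannot be told apart.

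Metallothioneins are small proteins in which cysteine residues hold zinc and copper ions in clusters, and they take up, store and hand on these metals and react with oxidants. Mt1 and Mt2 are made in most tissues, including liver and astrocytes, and their transcription is known to respond to zinc and cadmium through the metal-sensing transcription factor MTF-1, to glucocorticoids through the glucocorticoid receptor, and to the cytokine signals of the acute phase. Mt3, also called growth inhibitory factor, is expressed mainly in the brain, and Mt4 in stratified epithelia.

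The RefSeq annotation of GRCm38.p6 places the family on the plus strand of chromosome 8 within 43.1 kb, in the order Mt4, Mt3, Mt2 and Mt1. Mt3 spans chr8:94152607-94154148, Mt2 spans chr8:94172618-94173567 and Mt1 spans chr8:94178883-94180327, and the gap between Mt2 and Mt1 is 5.32 kb. The same annotation holds 7 nuclear tRNA-Phe genes, of which 0 are on chromosome 8. The promoter windows of the members are shown because the metal response element, the site read by MTF-1, is the best known control sequence of this family. Each window runs from 250 bases before to 50 bases after 1 annotated start site, on the plus strand, at chr8:94178839-94179138 for Mt1, chr8:94172368-94172667 for Mt2 and chr8:94152357-94152656 for Mt3. Capitals mark each match, on either strand, to the core of the metal response element, TGCACNC or TGCGCNC; no match overlaps another.
Mt1: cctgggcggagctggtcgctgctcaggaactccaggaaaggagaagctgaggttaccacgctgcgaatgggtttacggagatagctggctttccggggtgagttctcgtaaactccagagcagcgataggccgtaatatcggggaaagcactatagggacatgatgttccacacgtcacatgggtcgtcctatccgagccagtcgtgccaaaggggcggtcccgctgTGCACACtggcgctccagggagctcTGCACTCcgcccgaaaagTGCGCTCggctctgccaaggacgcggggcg
Mt2: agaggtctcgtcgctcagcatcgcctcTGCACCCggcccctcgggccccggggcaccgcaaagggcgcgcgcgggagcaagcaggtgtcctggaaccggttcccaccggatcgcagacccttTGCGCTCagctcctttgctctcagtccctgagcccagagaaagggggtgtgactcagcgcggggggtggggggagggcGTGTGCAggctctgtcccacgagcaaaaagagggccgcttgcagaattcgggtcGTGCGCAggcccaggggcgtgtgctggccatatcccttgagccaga
Mt3: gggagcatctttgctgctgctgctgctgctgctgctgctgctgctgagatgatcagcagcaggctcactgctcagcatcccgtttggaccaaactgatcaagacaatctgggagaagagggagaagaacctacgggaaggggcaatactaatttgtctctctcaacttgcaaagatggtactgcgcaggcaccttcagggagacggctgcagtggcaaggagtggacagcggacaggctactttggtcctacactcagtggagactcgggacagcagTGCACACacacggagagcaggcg

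The Mt1 window held 3 matches, which began at positions -23, 3 and 21 from the start site, and the Mt2 window held 4, at -223, -128, -50 and 5. At least 3 matches were found in 1.97% and at least 4 in 0.517% of the 32851 promoter windows of the same length in the RefSeq table. The Mt3 window held 1 match, at position 28, as did the window of Mt4, and 25.7% of all windows held at least 1. An antioxidant response element, TGACNNNGC, was matched once in the Mt2 window, at -79, and not in the other windows of the family, against 12.4% of all windows. No E-box CACGTG was matched in any of them, against 7.15% of all windows. These are matches of letters in 1 window per gene. The outer start of Mt1 lies upstream of the start site used here, and neither that start, nor bases downstream of the windows, nor distal elements were searched. Positions are counted from 1 annotated start per gene, which was not checked against the start in use. The counts of matches hold for these windows only.

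In the reference transcript of each gene in a newer GENCODE release, Mt1 and Mt2 code for 61 residues and Mt3 for 68, with 20 cysteines in each. The 20 cysteines align between every pair, while identity was 75.4% between Mt1 and Mt2, 64.7% between Mt1 and Mt3 and 57.4% between Mt2 and Mt3. None of the members holds a phenylalanine codon, which was also true of 197 of 21419 canonical coding sequences (0.920%) and of 13 of the 141 that code for 55 to 75 residues (9.22%). The median coding sequence had 3.74% phenylalanine. No 31-base window was shared between the transcripts of any pair, so reads that long without a mismatch from these transcripts could be placed on 1 member.

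In brain, Mt1 was measured at 2118, 1836 and 1949 normalised counts in WT replicates A, B and C, and at 2903, 3619 and 3173 in tRNA-Phe-1-1-/-. The same gene stood at 1892, 1761 and 1931 in tRNA-Phe-2-1-/- and at 2240, 1900 and 2448 in tRNA-Phe-3-1-/-. All 3 tRNA-Phe-1-1-/- brains thus lay above all 9 others, while the ranges of the other genotypes overlapped. Mt1 rose from 1968 ± 142 (SD, n = 3) in WT to 3232 ± 361 in tRNA-Phe-1-1-/-, a difference of 0.71 ± 0.11 (SE) on the log2(normalised count + 1) scale (95% interval 0.48 to 0.95, adjusted p = 0.0190, limma). It was also higher than in tRNA-Phe-2-1-/- by 0.79 (adjusted p = 0.0120, limma) and than in tRNA-Phe-3-1-/- by 0.56 (adjusted p = 0.0290, limma).

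Mt2 stood at 522, 518 and 553 normalised counts in WT brain and at 960, 1299 and 968 in tRNA-Phe-1-1-/- brain. The levels were 514, 476 and 487 in tRNA-Phe-2-1-/- and 620, 470 and 714 in tRNA-Phe-3-1-/-. The tRNA-Phe-1-1-/- libraries were again the 3 highest of the 12, with replicate B above A and C. The means were 531 ± 19.3 (SD, n = 3) in WT and 1076 ± 193 in tRNA-Phe-1-1-/-, and Mt2 rose by 1.00 ± 0.15 (SE) on the log2 scale (95% interval 0.67 to 1.34, adjusted p = 0.0192, limma). Against tRNA-Phe-2-1-/- the log2 difference was 1.11 (adjusted p = 0.0121, limma) and against tRNA-Phe-3-1-/- it was 0.84 (adjusted p = 0.0247, limma).

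Mt3 stood at 2961, 2820 and 2840 normalised counts in WT brain and at 3345, 3822 and 3623 in tRNA-Phe-1-1-/- brain. It was measured at 2617, 2505 and 3147 in tRNA-Phe-2-1-/- and at 2940, 2678 and 2948 in tRNA-Phe-3-1-/-. All 3 tRNA-Phe-1-1-/- libraries were above the other 9, by a smaller step than for Mt1 and Mt2. The log2 difference from WT was 0.32 ± 0.09 (SE; 95% interval 0.12 to 0.52, adjusted p = 0.117, limma), and it was 0.39 against tRNA-Phe-2-1-/- (adjusted p = 0.0837) and 0.33 against tRNA-Phe-3-1-/- (adjusted p = 0.0855), none past the threshold of 0.05. DESeq2 on the same reads called Mt3 in all of these comparisons, with adjusted p of 0.0339, 0.00851 and 0.0214.

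**Figure D1:**
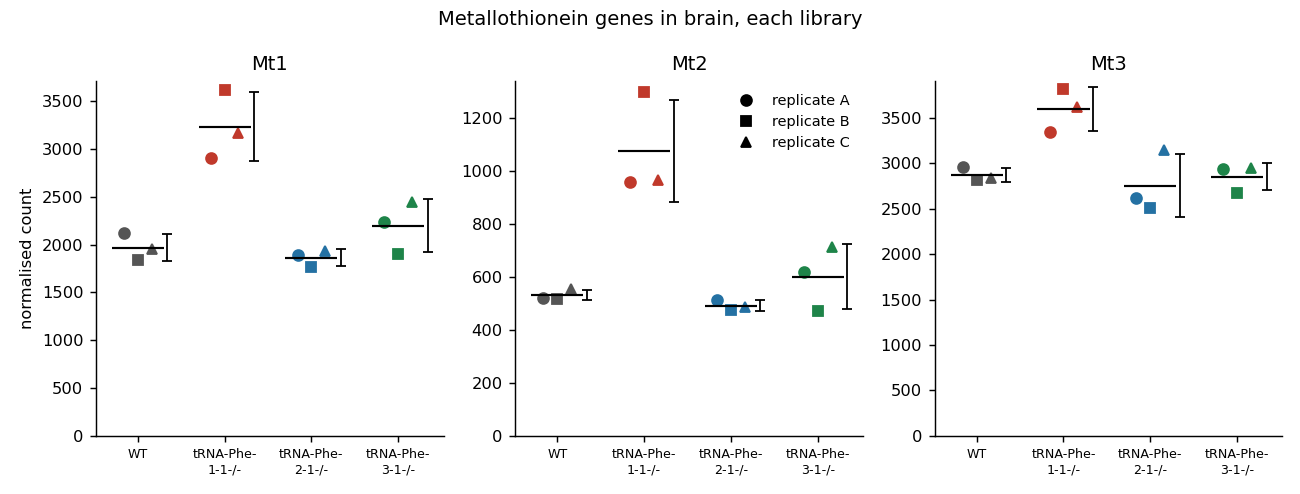
Normalised counts of Mt1, Mt2 and Mt3 (vertical axes, from 0) in the 12 brain libraries by genotype (horizontal axes). Points are single libraries and bars mark the mean and SD of 3. The tRNA-Phe-1-1-/- libraries are the 3 highest for each gene, between 2903 and 3619 for Mt1, 960 and 1299 for Mt2, and 3345 and 3822 for Mt3.

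Of the 19228 genes tested in brain, 1.05% were called at an adjusted p under 0.05 between tRNA-Phe-1-1-/- and WT, against 2 of the 3 members. The shares called were 0.53% against tRNA-Phe-2-1-/- and 2.11% against tRNA-Phe-3-1-/-, and the same 2 members were called in both. Groups that did not overlap, with tRNA-Phe-1-1-/- higher, were found for 12.8% of genes against WT, 11.2% against tRNA-Phe-2-1-/- and 12.4% against tRNA-Phe-3-1-/-, and for all 3 members in all of these comparisons. The 3 comparisons share the tRNA-Phe-1-1-/- libraries. Ordered by the log2 difference from WT, Mt2 was 309th, Mt1 712th and Mt3 2517th of 19228 genes.

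Leaving out 1 library moved the log2 differences from WT only within 0.63 to 0.79 for Mt1, 0.86 to 1.08 for Mt2 and 0.28 to 0.37 for Mt3. The calls were less firm. The call of Mt1 against WT was lost without WT replicate B (adjusted p = 0.0694, limma) or C (0.0771) or tRNA-Phe-1-1-/- replicate B (0.0888) or C (0.0685). That of Mt2 was lost without WT replicate A (adjusted p = 0.0533, limma), B (0.0694) or C (0.0769) or tRNA-Phe-1-1-/- replicate B (0.0876) or C (0.0614). The number of all genes called fell with them, from 202 to 74, 26 and 5 without WT replicates A, B and C and to 24 and 9 without tRNA-Phe-1-1-/- replicates B and C, and to 89, 124 and 120 without tRNA-Phe-2-1-/- replicate A or B or tRNA-Phe-3-1-/- replicate A.

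Against tRNA-Phe-2-1-/-, Mt1 lost its call without tRNA-Phe-1-1-/- replicate B (adjusted p = 0.0558, limma) or C (0.0506) or tRNA-Phe-2-1-/- replicate B (0.0732), Mt2 without the last of these (0.0732), and Mt3 gained a call without tRNA-Phe-2-1-/- replicate C (0.0449). Against tRNA-Phe-3-1-/-, Mt1 lost its call without WT replicate C (adjusted p = 0.0520, limma), tRNA-Phe-1-1-/- replicate B (0.118) or C (0.0825), or tRNA-Phe-3-1-/- replicate A (0.0655) or B (0.0507). In that comparison Mt2 lost its call without tRNA-Phe-1-1-/- replicate B (adjusted p = 0.0922, limma) or C (0.0589) or tRNA-Phe-3-1-/- replicate A (0.0565), and Mt3 gained one without tRNA-Phe-2-1-/- replicate C (0.0438). WT and tRNA-Phe-2-1-/- libraries enter here through the shared estimate of the spread.

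The other lines did not differ from WT past the threshold. Between tRNA-Phe-2-1-/- and WT brains the log2 differences were -0.08 for Mt1, -0.11 for Mt2 and -0.07 for Mt3 (adjusted p = 0.971 for each, limma). The 3 tRNA-Phe-2-1-/- levels of Mt2 lay just below the 3 of WT, which was also so for 5.43% of genes. Between tRNA-Phe-3-1-/- and WT the differences were 0.15 (adjusted p = 0.604, limma), 0.16 (0.720) and -0.01 (0.977), and between tRNA-Phe-3-1-/- and tRNA-Phe-2-1-/- they were 0.23 (0.512), 0.27 (0.595) and 0.06 (0.876). The share of all genes called was 0% in each of these 3 comparisons by limma and none was called by edgeR. At an unadjusted p under 0.05 limma had 1071, 2373 and 1910 genes, and DESeq2 called 21, 373 and 166.

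The ratio of Mt1 to Mt2 normalised counts was 3.02, 2.79 and 3.28 in the tRNA-Phe-1-1-/- brains and 3.43 to 4.06 in the other 9 brains, with no overlap. The log2 ratio was lower by -0.29 against WT, -0.32 against tRNA-Phe-2-1-/- and -0.29 against tRNA-Phe-3-1-/- (two-sided exact permutation p = 0.1 for each, the smallest that 3 against 3 libraries allow). These p-values do not pass 0.05, and with 3 libraries in each group they could not.

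Across the 9 brain libraries other than tRNA-Phe-1-1-/-, log2 levels of Mt1 and Mt2 were correlated with Pearson r = 0.90 (exact permutation p = 0.0026, adjusted over 4 relations 0.0104) and Spearman rho = 0.78 (exact permutation p = 0.0172, adjusted 0.0622). Without the 2 libraries farthest from the median of Mt1, r was 0.45, so the relation rested on those libraries. For Mt1 and Mt3, r was 0.58 (exact permutation p = 0.104, adjusted 0.139) and rho was 0.73 (exact p = 0.0311, adjusted 0.0622), with r = 0.64 after the same omission. For Mt2 and Mt3, r was 0.40 (exact permutation p = 0.286) and rho was 0.48 (exact p = 0.194). Here and in the liver relation below, levels were not centred on genotype and the permutations mixed genotypes. Differences between genotypes can therefore enter these values.

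In liver, Mt1 stood at 6662, 22706 and 2488 normalised counts in tRNA-Phe-1-1-/- replicates A, B and C. WT livers held 81.1, 228 and 415, tRNA-Phe-2-1-/- livers 86.5, 109 and 72.8, and tRNA-Phe-3-1-/- livers 244, 90.0 and 91.5. All 3 tRNA-Phe-1-1-/- livers lay above the other 9, and replicate B lay far above A and C. The means were 10619 ± 10674 (SD, n = 3) in tRNA-Phe-1-1-/- and 241 ± 167 in WT, and the log2 difference was 5.18, a factor of 36.4 between geometric means.

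Mt2 stood at 1147, 8695 and 521 normalised counts in the same 3 tRNA-Phe-1-1-/- livers. It was measured at 26.4, 22.7 and 46.7 in WT, at 16.8, 13.0 and 21.2 in tRNA-Phe-2-1-/- and at 25.9, 11.3 and 8.04 in tRNA-Phe-3-1-/-. The order of the 3 tRNA-Phe-1-1-/- livers, B highest and C lowest, was that of Mt1, and all lay far above the other genotypes. The log2 difference from WT was 5.79, a factor of 55.2. Against tRNA-Phe-2-1-/- the log2 differences were 6.34 for Mt1 and 6.61 for Mt2, and against tRNA-Phe-3-1-/- they were 5.83 and 6.91. Of 15856 genes ordered by the log2 difference from WT, Mt2 was 2nd and Mt1 11th.

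**Figure D2:**
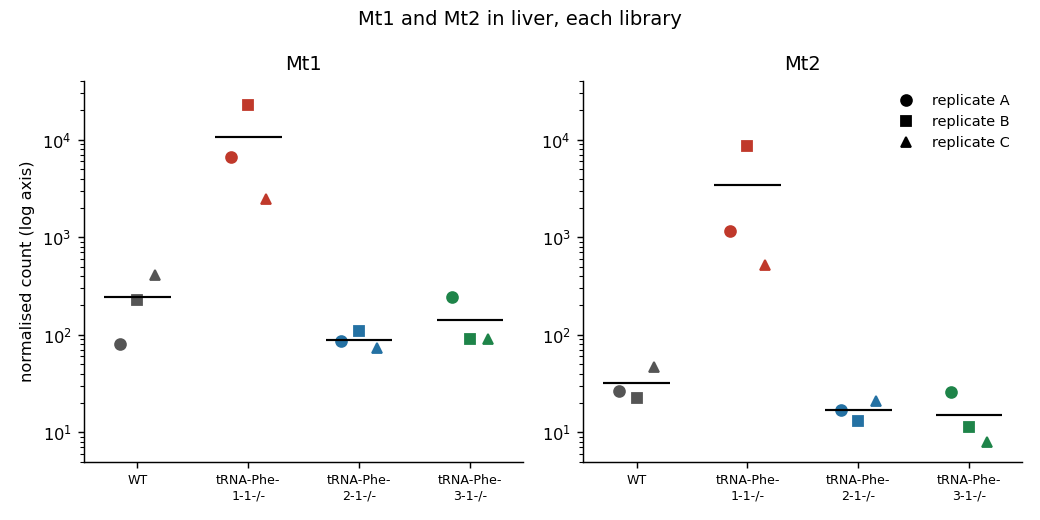
Normalised counts of Mt1 and Mt2 on a logarithmic vertical axis in the 12 liver libraries by genotype (horizontal axis). Points are single libraries. The 3 tRNA-Phe-1-1-/- livers lie between 2488 and 22706 for Mt1 and between 521 and 8695 for Mt2, above the 9 other livers, and differ most among themselves.

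Replicate B carried much of the mean in tRNA-Phe-1-1-/- livers. Without it the log2 differences from WT were 4.36 for Mt1 and 4.62 for Mt2, without replicate A they were 5.24 and 6.08, and without replicate C they were 5.95 and 6.65. Groups did not overlap, with tRNA-Phe-1-1-/- higher, for 17.2% of the genes tested against WT, 18.4% against tRNA-Phe-2-1-/- and 15.5% against tRNA-Phe-3-1-/-, and 17.3% of genes were called between tRNA-Phe-1-1-/- and WT. For the members these comparisons entered the choice, so nothing is read from the shares.

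Between the other livers no difference passed the threshold. Mt1 was lower in tRNA-Phe-2-1-/- than in WT by -1.16 ± 0.74 (SE) on the log2 scale (95% interval -2.78 to 0.47, adjusted p = 0.489, limma) and Mt2 by -0.83 ± 0.81 (adjusted p = 0.659, limma). The Mt2 levels of these 2 groups did not overlap, as for 12.2% of genes with tRNA-Phe-2-1-/- lower. Between tRNA-Phe-3-1-/- and WT the differences were -0.64 for Mt1 (adjusted p = 0.717, limma) and -1.13 for Mt2 (0.536), and between tRNA-Phe-3-1-/- and tRNA-Phe-2-1-/- they were 0.51 (0.946) and -0.30 (0.977). Called shares over all genes were 0.132%, 0.883% and 0% in these 3 comparisons. In the last, limma had 1059 genes at an unadjusted p under 0.05, edgeR called 0 and DESeq2 called 29. Behind these values were 79 to 320 reads of Mt1 and only 8 to 36 reads of Mt2 per library, and the intervals are wide enough that differences of several fold were not detectable.

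The spread within genotypes differed between the tissues. In liver the within-genotype SD on the log2 scale was 1.08 for Mt1 and 1.17 for Mt2, larger than for 97.8% and 98.1% of the genes tested, where the median was 0.23. In brain it was 0.14, 0.20 and 0.11 for Mt1, Mt2 and Mt3, against a median of 0.21. Across the 9 livers other than tRNA-Phe-1-1-/-, Mt1 and Mt2 were correlated with r = 0.67 (exact permutation p = 0.0494, adjusted 0.0987) and rho = 0.30 (exact p = 0.437, adjusted 0.437), and r was 0.17 without the 2 farthest libraries, so no relation held.

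**Figure D3:**
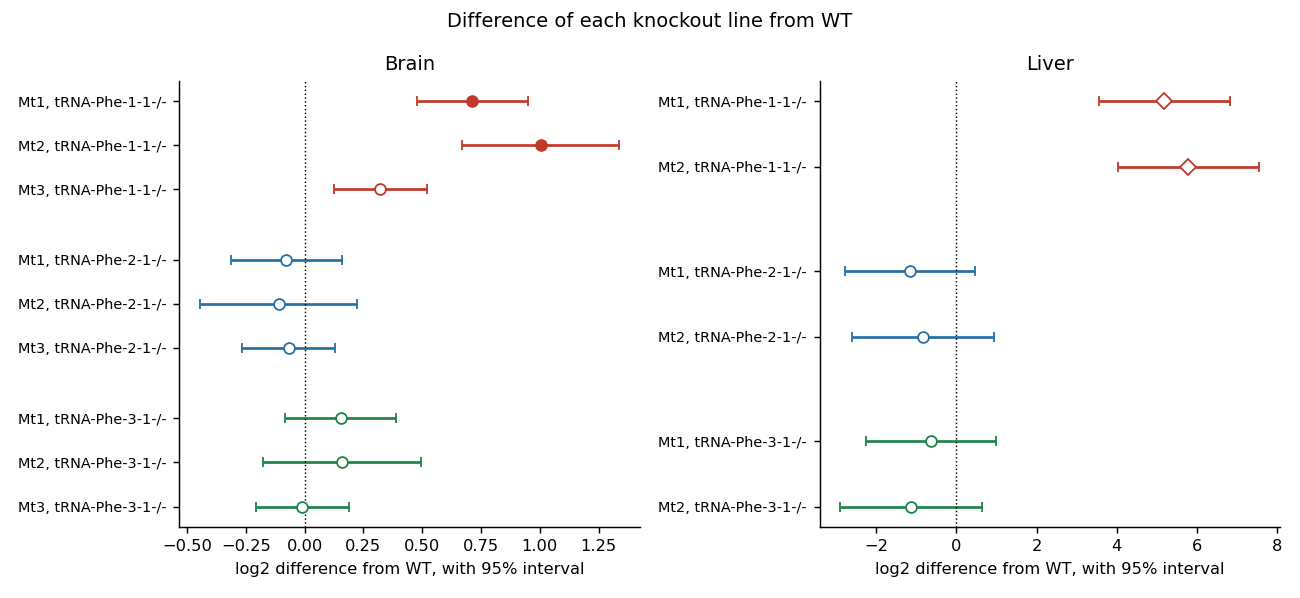
Log2 differences of Mt1, Mt2 and Mt3 between genotypes in brain and of Mt1 and Mt2 in liver, with 95% intervals (limma, 3 libraries in each group); the zero line marks no difference. In brain the differences of tRNA-Phe-1-1-/- from WT were 0.71, 1.00 and 0.32, and in liver they were 5.18 and 5.79, shown as a description.

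Levels of different genes were compared as RPM (reads scaled to a common library total, the usual unit of depth) per kb of transcript, with transcript lengths of 549 bases for Mt1, 682 for Mt2 and 865 for Mt3. In WT brain the mean was 101 for Mt1, 93.7 for Mt3 and 22.0 for Mt2, so that Mt2 was the lowest. In tRNA-Phe-1-1-/- brain the values were 168, 118 and 44.8. In WT liver Mt1 was at 10.4 and Mt2 at 1.11, and in tRNA-Phe-1-1-/- liver they were at 478 and 126. By mean normalised count Mt1 was 8982nd and Mt2 13455th of 15856 genes in WT liver, and 387th and 1412th in tRNA-Phe-1-1-/- liver. The tissues were normalised separately by the authors, so levels set across them are descriptive.

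Mt3 had 0 reads in each of the 12 livers. A count of 0 allows up to 3 reads, or 0.0929 RPM in the shallowest liver library, a limit for counting error only. Mt4 had 1 read in tRNA-Phe-2-1-/- brain replicates A and C and 0 in all other libraries.

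Zinc enters the cytosol through Slc39 transporters and leaves it, or is loaded into vesicles, through Slc30 transporters. In tRNA-Phe-1-1-/- brain none of 8 Slc30 genes, 13 Slc39 genes and 11 copper handling genes tested was called against WT by limma or edgeR, beside 1.05% of all genes called by limma. DESeq2 called 1 Slc39 gene and 1 copper gene, beside 874 of all 19228 genes tested. The lists' median log2 differences were 0.03, 0.07 and 0.03, against a median of -0.00059 over all genes. Slc30a1, the plasma membrane zinc exporter and a known target of MTF-1, differed by 0.16 (adjusted p = 0.354, limma). Mtf1 itself differed by 0.21 (adjusted p = 0.434, limma) and Slc39a14, a zinc and manganese importer, by 0.13 (adjusted p = 0.742). The lowest adjusted p among the Slc39 genes was that of Slc39a2, at 336 ± 33.0 (SD, n = 3) against 225 ± 8.02 normalised counts, a difference of 0.57 (adjusted p = 0.0887, limma). Among the copper genes it was that of Cp, which encodes ceruloplasmin, at 1089.6 ± 328 against 509 ± 121, a difference of 1.08 (adjusted p = 0.0558, limma). Neither gene's groups overlapped, with tRNA-Phe-1-1-/- higher, as for 12.8% of genes.

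In tRNA-Phe-1-1-/- liver, where 17.3% of all genes were called, 2 of 8 Slc30 genes rose and 1 fell, 3 of 13 Slc39 genes rose and 1 fell, and 1 of 11 copper genes rose and 2 fell. Slc39a14 rose from 5843 ± 948 (SD, n = 3) to 17992 ± 901 normalised counts, by 1.63 ± 0.16 (SE; adjusted p = 0.000121, limma). Slc39a6 rose by 1.09 (adjusted p = 0.00449, limma), Slc39a8 fell by 0.54 (0.00189), Slc30a5 rose by 1.05 (0.000656), Slc30a4 rose by 0.45 (0.0278) and Slc30a10, a manganese exporter, fell by 0.78 (0.00391). Of the copper genes, the copper-exporting ATPase Atp7b fell by 0.85 (adjusted p = 0.00106, limma), the cytochrome oxidase assembly gene Sco2 fell by 1.11 (0.000613), and ceruloplasmin, Cp, rose by 0.62 (0.0288). The calls of Slc30a4 and Cp were each lost without WT replicate A (adjusted p = 0.0523 and 0.0634, limma) or C (0.112 and 0.111) or tRNA-Phe-1-1-/- replicate A (0.0539 and 0.0698) or B (0.0835 and 0.0726). Slc30a1 differed by 0.15 and was not called (adjusted p = 0.447, limma), while Mtf1 rose from 574 ± 25.2 to 952 ± 53.5, by 0.73 ± 0.10 (adjusted p = 0.000999, limma).

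Of 14 glucocorticoid-induced genes tested in tRNA-Phe-1-1-/- brain, 8 rose and 0 fell against WT, where 1.05% of all genes were called, and the median log2 difference was 0.91. The list was chosen with earlier results of these data known, so its counts here and in liver are descriptive. Fkbp5, a co-chaperone of the glucocorticoid receptor, rose from 629 to 1860 normalised counts, by 1.54 ± 0.17 (SE; adjusted p = 0.00813, limma). Plin4, a lipid droplet protein, rose by 3.25 ± 0.39 (adjusted p = 0.0107, limma) and Nfkbia, an inhibitor of NF-kappaB, by 0.92 ± 0.13 (0.0160). Nr3c1, the glucocorticoid receptor gene, fell by 0.43 ± 0.08 (adjusted p = 0.0318, limma). Its differences from WT were -0.46 in tRNA-Phe-3-1-/- (adjusted p = 0.130, limma) and -0.19 in tRNA-Phe-2-1-/- (0.894), uncalled, and in both lines its levels lay below all 3 of WT. In tRNA-Phe-2-1-/- that was so for 5.43% of all genes, and the share was not computed for tRNA-Phe-3-1-/-.

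These brain calls also depended on single libraries. The count of 8 became 4, 3 and 1 without WT replicates A, B and C, 3 and 1 without tRNA-Phe-1-1-/- replicates B and C, 3 and 5 without tRNA-Phe-2-1-/- replicates A and B, and 4 without tRNA-Phe-3-1-/- replicate A. Fkbp5 kept its call in all of these fits. Plin4 lost it without WT replicate C (adjusted p = 0.0504, limma) or tRNA-Phe-1-1-/- replicate C (0.0599), and Nfkbia without WT replicate B (0.0570) or C (0.0754) or tRNA-Phe-1-1-/- replicate C (0.0614). Nr3c1 lost it without WT replicate B (adjusted p = 0.0981, limma) or C (0.138) or any tRNA-Phe-1-1-/- replicate (0.0525 to 0.138).

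In tRNA-Phe-1-1-/- liver, where 17.3% of all genes were called, 7 of 15 glucocorticoid-induced genes rose and 1 fell, with a median of 1.00, and the count that rose was 4 without WT replicate B or tRNA-Phe-1-1-/- replicate C and 3 without WT replicate C. Fkbp5 rose by 2.18 (adjusted p = 0.000121, limma) and the clock gene Per1 by 3.76 (0.000876), while Pdk4, which restrains pyruvate oxidation, fell by 2.95 (0.000163). Nr3c1 fell by 0.21 (adjusted p = 0.0488, limma) and was called in only 1 of the 12 fits with a library left out. In tRNA-Phe-3-1-/- liver Pdk4 fell by 2.04 ± 0.30 (adjusted p = 0.0229, limma), the only gene of the zinc, copper, regulator, glucocorticoid, acute phase and Nrf2 lists that limma called against WT in either tissue of that line or of tRNA-Phe-2-1-/-.

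Of 20 hepatic acute phase genes 16 rose and 0 fell in tRNA-Phe-1-1-/- liver against WT, beside 17.3% of all genes called, with a median log2 difference of 1.69, and 10 rose without WT replicate C or without tRNA-Phe-1-1-/- replicate A. The acute phase list was likewise chosen with earlier results of these data known, so these counts are descriptive. Saa4, a serum amyloid A gene, rose by 2.80 and Steap4, a metalloreductase, by 3.05 (adjusted p = 5.38e-05 for each, limma), and haptoglobin, Hp, by 1.64 (0.000362). Stat3, through which interleukin-6 acts on these genes, rose by 0.81 (adjusted p = 0.00207, limma). In brain 11 of the 20 genes were tested and 1 rose, beside 1.05% of all genes called. This was lipocalin-2, Lcn2, at 262 ± 206 (SD, n = 3) normalised counts against 8.89 ± 12.8 in WT, a log2 difference of 5.30 ± 1.07 (adjusted p = 0.0469, limma), and it lost its call by edgeR and in 9 of the 12 fits with a library left out.

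Of 9 antioxidant genes controlled by Nrf2, 0 were called in tRNA-Phe-1-1-/- brain, with a median of 0.17, and 1 rose and 4 fell in tRNA-Phe-1-1-/- liver, with a median of -0.67. The catalytic subunit of glutathione synthesis, Gclc, fell by 1.86 (adjusted p = 0.000239, limma), glucose-6-phosphate dehydrogenase, G6pdx, fell by 1.23 (0.0104) and the glutathione transferase Gsta1 fell by 2.82 (0.0111). The call of G6pdx was lost without WT replicate C (adjusted p = 0.0517, limma) and the 1 rise without WT replicate B or C or tRNA-Phe-1-1-/- replicate A or B. Of all genes, 1.05% were called in brain and 17.3% in liver, and the median over all liver genes was -0.0051.

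**Figure D4:**
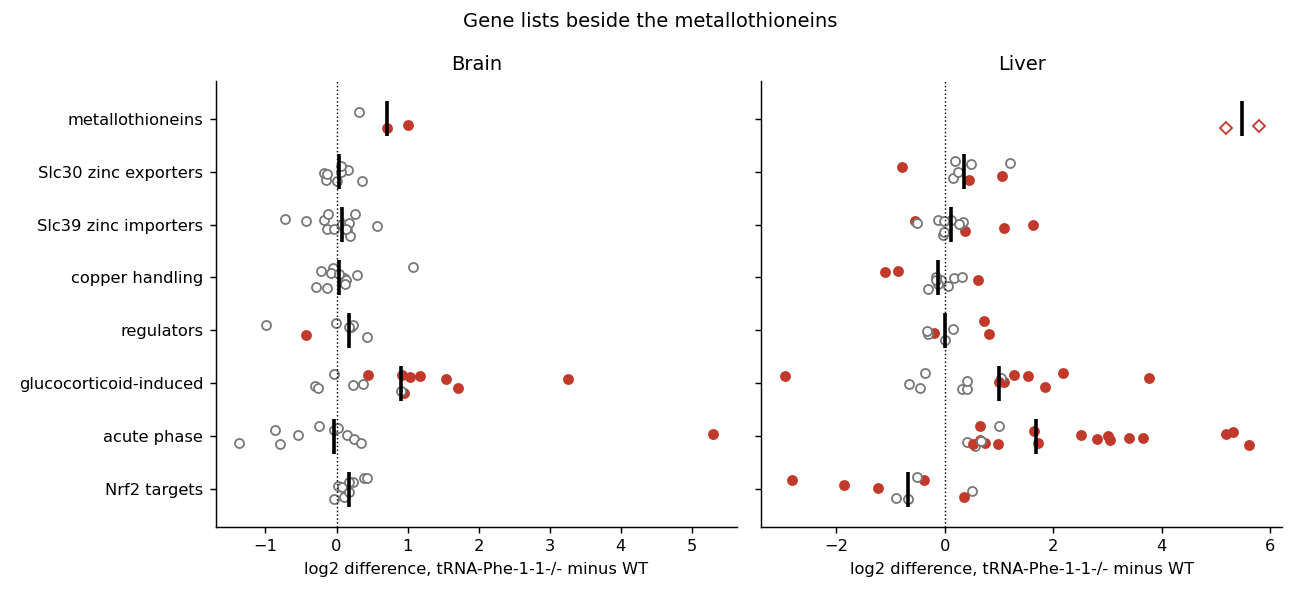
Log2 differences between tRNA-Phe-1-1-/- and WT (horizontal axis) for the genes of each list in brain and liver. Each point is 1 gene and filled points were called at an adjusted p under 0.05 (limma). In brain 8 of 14 glucocorticoid-induced genes and 2 of 3 metallothioneins are called higher, and in liver 16 of 20 acute phase genes are.

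Protein-coding neighbours on chromosome 8 within 200 kb included Gnao1, Nudt21, Ogfod1, Bbs2, Nup93 and Slc12a3. None of these was called between tRNA-Phe-1-1-/- and WT in brain or in liver. Over all genes 1.05% were called in brain and 17.3% in liver, so nothing is read from so few neighbours. Groups did not overlap, with tRNA-Phe-1-1-/- higher, for Nudt21 in brain and Bbs2 in liver, as for 12.8% and 17.2% of genes. In brain the log2 differences lay between -0.08 for Slc12a3 and 0.48 for Nup93 (adjusted p = 0.289, limma). In liver, where Slc12a3 was not tested, they lay between -1.47 for Gnao1 (adjusted p = 0.171, limma) and 0.77 for Bbs2 (0.0862).

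**Figure D5:**
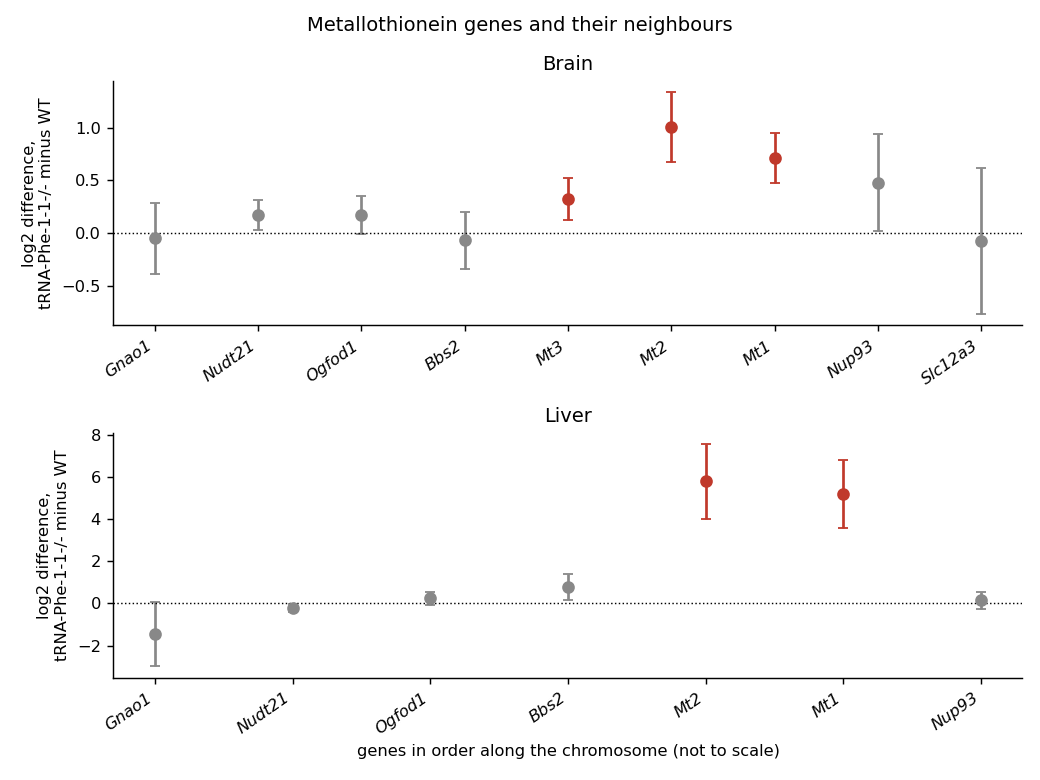
Log2 differences between tRNA-Phe-1-1-/- and WT with 95% intervals for the metallothionein genes and the protein-coding neighbours named above in order along the chromosome, in brain and liver. In brain Mt1 and Mt2 are called and no plotted neighbour is, and in liver Mt1 and Mt2 lie at 5.18 and 5.79 while the plotted neighbours lie between -1.47 and 0.77. The liver values and intervals of Mt1 and Mt2 are a description and not a test, because this comparison entered the choice of the genes.

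The genes most like each member were named by Pearson r of log2 levels over the 12 libraries of a tissue, a description in which the points share genotypes. In brain, among 15157 genes with a mean of at least 50, those nearest Mt1 were Mt2 and Angptl4 (r = 0.98 each), then Stip1, Cacybp and Mat2a (0.95 each). Nearest Mt2 were Mt1 and Angptl4 (0.98 each), then Ptges3, Stip1 and Gm20634 (0.95 each). Nearest Mt3 were Rrp8 (0.97), Tsc22d3 and Serpinh1 (0.95 each), Cacybp (0.94) and Chordc1 (0.93), with Mt1 in 15th place at 0.92 and Mt2 in 49th at 0.88. In liver, among 12462 genes, Stat3, Tnfaip3, Grn and Mt2 (0.98 each) and Hspe1 (0.97) were nearest Mt1, and Mt1 (0.98), Grn, Nadk, Il6st and Saa2 (0.97 each) were nearest Mt2.

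Some markers of cell types also differed between tRNA-Phe-1-1-/- and WT libraries, and some of these differences recurred in other lines. In brain the 6 oligodendrocyte markers summed to 44025 to 83672 normalised counts in tRNA-Phe-1-1-/- and to 115758 to 138122 in WT. All 6 were lower and 0 were called by limma, and the tRNA-Phe-1-1-/- sums overlapped those of tRNA-Phe-2-1-/- (64010 to 153170) and tRNA-Phe-3-1-/- (79489 to 169610). The 5 erythroid markers summed to 7588 to 9630 against 15395 to 28255 in WT, all lower and 0 called. They summed to 6610 to 15616 in tRNA-Phe-2-1-/-, where all 5 were also lower than in WT. In tRNA-Phe-3-1-/- they summed to 16632 to 37016, and all 5 were higher than in WT. The 10 astrocyte markers, from cells known to express Mt1, Mt2 and Mt3, summed to 138427 to 160378 in tRNA-Phe-1-1-/- and 139256 to 164483 in WT, which overlap. Of the 6 brain endothelium markers, which summed to 6681 to 7254 against 7057 to 7552, Ly6c1 rose by 0.89 while Cldn5 fell by 0.54 and Itm2a fell by 0.58 (adjusted p = 0.0160, 0.0160 and 0.0230, limma). These names were taken after their values were seen, and 1.05% of all genes were called between these groups.

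The 6 choroid plexus and ependyma markers summed to 312 to 799.7 in tRNA-Phe-1-1-/- brains and to 707 to 13243 in WT, with a median log2 difference of -1.25, and their sums ran from 284 to 52917 in tRNA-Phe-2-1-/- and from 270.5 to 27144 in tRNA-Phe-3-1-/-. All 7 hepatocyte markers tested in brain were lower in tRNA-Phe-1-1-/- than in WT, with a median of -1.34. All 7 were also lower in tRNA-Phe-3-1-/-, with a median of -2.31, while 5 were higher in tRNA-Phe-2-1-/-, with a median of 0.50. None of either list was called by limma. Both lists hold Ttr, which stood at 5.0 to 84.8 in tRNA-Phe-1-1-/- and 486 to 12103 in WT brains. The part of these markers in the brain result was not tested.

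In liver the 6 neutrophil markers summed to 169.9 to 441 normalised counts in tRNA-Phe-1-1-/- and to 52.8 to 88.0 in WT. The 3 that were tested were called higher, beside 17.3% of all genes called in this comparison. Ly6g, which defines neutrophils, was under 10 in every library. The 5 erythroid markers summed to 11566 to 13840 against 19732 to 26031 in WT, and 4 of them fell. Of the 8 hepatocyte markers 1, Hnf4a, was called higher, and the hepatocyte sums were 2173791 to 2660262 against 2724823 to 3358389 in WT. The hepatocyte sums were 2334448 to 2557486 in tRNA-Phe-2-1-/- livers, also below WT, and 2957133 to 3443714 in tRNA-Phe-3-1-/- livers. Of the 6 liver endothelium markers 1, Lyve1, was called higher, and 4 had a positive difference. Of the 6 stellate cell markers 1, Dcn, was called higher, and 5 had a positive difference. The part of these markers in the liver levels was not tested.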

How the data were processed

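Total RNA libraries (TruSeq, Illumina NovaSeq) of 24 brain and liver samples were used, grouped by genotype and tissue from the sample titles. The authors trimmed reads with Trim Galore and cutadapt, aligned them with STAR to GRCm38.p6 with nuclear mitochondrial copies masked, ran Salmon with its strand setting and its corrections for sequence and GC bias, summed them to genes, and normalised each tissue with DESeq2. The deposited values are a signal, normalised counts. Division by 1 step per sample gave whole reads for 100.0% of values above 0 (tolerance 0.01), and recovered reads gave depths. Salmon's division of reads matters most for close copies, and the scaling holds only where the bulk of genes stayed level. The authors' tables of comparisons (fold changes and s-values) were not used. Symbols came from GENCODE for 93.2% of Ensembl identifiers, and positions and promoters from RefSeq tables for GRCm38.p6. Transcript and coding properties came from a newer GENCODE release on another build, without its coordinates.

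In each tissue, log2(normalised count + 1) of genes with a mean of at least 10 was fitted over 12 samples with limma 3.58.1 (R 4.3.3, variance trend), two-sided, with Benjamini-Hochberg adjustment over all genes tested and a threshold of 0.05. Fold changes on this scale understate those of low genes. Folds are ratios of geometric means on it. Alternatives were edgeR 4.0.16 and DESeq2 1.42.0 on recovered reads, other pseudocounts, filters and normalisations, no variance trend, only the groups compared, a replicate block and leaving out each library. Scripts were tested on simulated data. The members and gene lists were chosen with earlier results of these data known. Besides the members, Mt4, Mtf1, Slc30a1 and Slc39a14 were named, with up to 3 called genes of lowest adjusted p in each list, the neighbours within 200 kb, of which 1 is not reported here, and the 5 most alike genes.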

Additional observations from a re-analysis of the deposited data

How the results depend on the processing

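The 24 tested member differences were each recomputed under 23 other settings, libraries left out included, and 515 of 552 values kept their direction and their side of the threshold. That total includes many differences that were not called, while calls were lost only for Mt1 and Mt2 in brain. Against WT their calls held in 8 (Mt1) and 7 (Mt2) of 12 fits with 1 library left out. In brain, with 1 library left out, the log2 differences of tRNA-Phe-1-1-/- lay between 0.63 and 0.79 (Mt1), 0.86 and 1.08 (Mt2) and 0.28 and 0.37 (Mt3) against WT, between 0.71 and 0.87, 0.97 and 1.19, and 0.32 and 0.49 against tRNA-Phe-2-1-/-, and between 0.46 and 0.64, 0.68 and 0.98, and 0.29 and 0.38 against tRNA-Phe-3-1-/-. DESeq2 called Mt3 against these groups at 0.32, 0.38 and 0.33. With only the 2 groups compared in the fit, which leaves fewer samples to estimate the spread, tRNA-Phe-1-1-/- lost its calls against tRNA-Phe-2-1-/- for Mt1 (0.79, adjusted p = 0.0570, limma) and Mt2 (1.11, 0.0556), and against tRNA-Phe-3-1-/- for Mt1 (0.56, 0.150) and Mt2 (0.84, 0.150). Mt1 also lost the last call under quantile normalisation (0.50, adjusted p = 0.0508, limma) and without the variance trend (0.56, 0.0558); the cause was not tested. Signs turned only in uncalled differences near 0. Mt3 between tRNA-Phe-3-1-/- and WT was 0.025 under quantile normalisation and lay between -0.034 and 0.035 with 1 library left out, between tRNA-Phe-3-1-/- and tRNA-Phe-2-1-/- it lay between -0.0086 and 0.16, and Mt2 in liver between those lines lay between -0.75 and 0.036. Among the listed genes in brain with 1 library left out, Slc39a14 lay between -0.049 and 0.27 in tRNA-Phe-1-1-/-, between -0.023 and 0.30 in tRNA-Phe-2-1-/- and between -0.31 and 0.0085 in tRNA-Phe-3-1-/- against WT, and Mtf1 between -0.05 and 0.15 in tRNA-Phe-2-1-/-. The 8 glucocorticoid-induced genes called in brain were 5 with no filter or with the replicate block, 4 with only the 2 groups compared and 3 without the variance trend. The brain call of Lcn2 was lost with edgeR, the replicate block, a pseudocount of 0.1, no filter, no variance trend and only the 2 groups compared. Same-letter samples had correlated deviations from -0.16 to 0.49 in brain and from -0.29 to 0.24 in liver, above 0.1 in 7 and 3 of 18 pairs, and the best match of a sample had its own letter in 13 of 36 cases in brain and 7 of 36 in liver, so letters were not taken to pair samples. With the replicate block the brain differences of Mt1 and Mt2 from WT had adjusted p of 0.0367 and 0.0393 (limma), and no member call changed. The block took all genes called from 202 to 173 in tRNA-Phe-1-1-/- brain, from 21 to 1 in tRNA-Phe-2-1-/- liver and from 140 to 9 in tRNA-Phe-3-1-/- liver, against WT. Over the other settings and omissions the number called against WT lay between 5 and 874 in tRNA-Phe-1-1-/- brain, between 0 and 495 in tRNA-Phe-2-1-/- liver and between 2 and 767 in tRNA-Phe-3-1-/- liver. Depth limits most the liver values of Mt2 outside tRNA-Phe-1-1-/-.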
